A study of Mus musculus with 3 samples.

Results

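The transcripts of 8 genes that carry, release, take up or export lipid were followed through the cells of the mouse lacrimal gland (LG), the exocrine gland that makes the watery layer of the tear film. The genes *Apoe*, *Apod*, *Pltp*, *Lpl*, *Cd36*, *Fabp4*, *Fabp5* and *Abca1* were chosen by name out of 32285 genes counted, and each of the 8 was detected in every library. The study profiled dissociated, unsorted LG cells of C57BL/6J mice aged 2 months by single-cell RNA sequencing (scRNAseq), and the labels name no treatment or transgene. There was 1 female library and there were 2 male libraries, and each was made from 6 glands of 3 mice combined before dissociation. The female library was prepared at another core facility and on another day than the male libraries, so these 3 factors cannot be told apart here, and sex was not tested because only 1 library was female. Where 3 values stand together they are in the order female, male 1, male 2. The replicate throughout is the library, so p-values refer to 3 pooled suspensions and not to single mice. The edgeR test pools spread over genes, so an SE or p-value need not reflect the spread of 1 gene over 3 libraries.

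After filtering, the libraries held 7652, 5295 and 5397 cells, with 55390678, 37641576 and 41269825 UMIs. A UMI is a tag that lets each captured RNA molecule be counted once. The median cell held 3252 UMIs in the female library and 1884 and 1788 in the male libraries. The kept sets shared between 8 and 13 barcode sequences per pair of libraries. Cells were grouped by clustering and named from marker genes, without any of the 8 genes or the other lipid genes described here, and "-like" marks a name given in this way. The classes were acinar-like (4832 cells), duct-like (1688), *Ltf+*-like epithelial (1097), myoepithelial or MEC-like (943), fibroblast-like (2885), endothelial-like (1783), mural-like (146), lymphoid-like (1513), macrophage-like (2481) and other myeloid-like cells (541, monocytes and dendritic cells). The adipocyte markers *Adipoq*, *Cidec* and *Lep* had 0 UMIs in every library and *Plin1* had 1 UMI in all, and adipocytes are known to express *Fabp4*, *Lpl* and *Cd36*. Of the lymphatic endothelial markers, *Prox1* had 5, 0 and 1 UMIs and *Lyve1* 3, 5 and 1 over all kept cells.

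A level below is the number of UMIs of a gene per 1000000 UMIs (CPM) of a class in a library, leaving tear-product and mitochondrial genes out of the total, because tear products made up 85.6 to 90.5% of the UMIs of acinar-like cells. Levels are compared between cells for 1 gene and not between genes. Free RNA was measured in the barcodes with over 500 UMIs that the authors did not call as cells. It carried *Apoe* at 505, 318 and 318 CPM and *Fabp5* at 46.2, 332 and 274. *Apod* reached 39.1, 52.0 and 21.7 in free RNA, and the other 5 genes stayed at or below 16.3. These are levels within free RNA itself, and so the most that it could add to the level of a class. A level near or below them was not told apart from free RNA by this comparison alone. Subtracting the expected free RNA, outside the epithelial classes, moved 7 levels beyond 1 SD. It left 209 within 1 SD, the unchanged epithelial ones included.

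Lipids travel between cells as lipoprotein particles, in which apolipoproteins such as apolipoprotein E hold the lipid in solution and bind receptors. Lipoprotein lipase, made by parenchymal cells and moved to the capillary wall, splits the triglycerides of these particles, and the fatty acids set free enter cells through CD36 and are bound in the cytosol by small fatty acid binding proteins. Macrophages, which take up lipid from dying cells and particles, pass cholesterol back out through the transporter ABCA1 to acceptors such as apolipoprotein E, and phospholipid transfer protein remodels the particles on the way. In the tear film, proteins of the lipocalin family are known to bind lipid.

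The genes divided among the LG cells in 3 ways. *Apod* and *Fabp4* came nearly all from a single class, with 98.8 ± 0.48% of *Apod* UMIs (SD, n = 3 libraries) in fibroblast-like cells and 94.2 ± 2.93% of *Fabp4* UMIs in endothelial-like cells. *Lpl* and *Cd36* had a main class and a second one, with 82.3 ± 10.4% of *Lpl* UMIs in fibroblast-like and 14.3 ± 8.09% in macrophage-like cells, and 71.3 ± 5.73% of *Cd36* UMIs in macrophage-like and 22.2 ± 6.58% in endothelial-like cells. *Apoe*, *Pltp*, *Fabp5* and *Abca1* were spread over epithelial, stromal and immune classes. These shares depend on how many cells of a class survived dissociation as well as on their level.

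**Figure D1:**
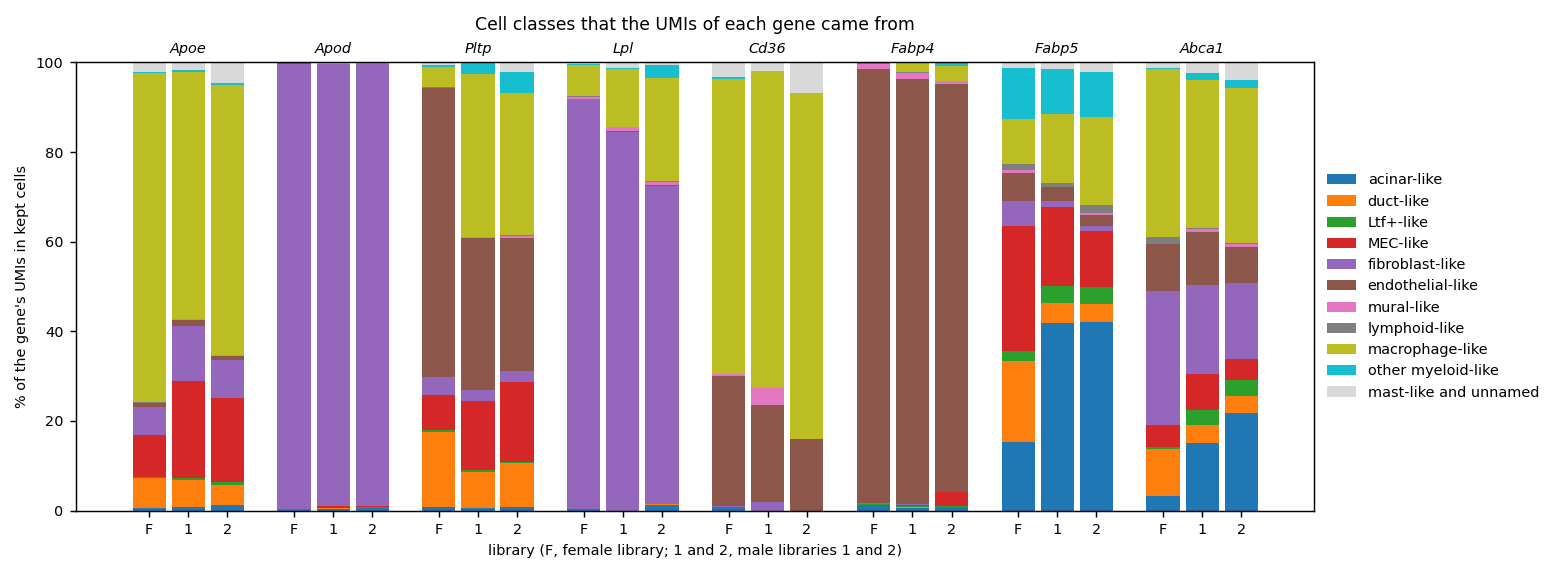
Share of each gene's UMIs in kept cells (y axis, %) that came from each cell class, in the female library and male libraries 1 and 2 (x axis), for the 8 genes. *Apod* and *Fabp4* bars are filled almost wholly by fibroblast-like and endothelial-like cells, macrophage-like cells fill 55.2 to 73.6% of the *Apoe* bars, and acinar-like cells fill 15.4% of the *Fabp5* bar in the female library and 41.8 and 42.1% in the male ones.

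*Apoe* (chr7:19696109-19699188 on mm10, minus strand) encodes apolipoprotein E, a lipid carrier that macrophages are known to secrete. Its level in macrophage-like cells was 28110, 21140 and 26760 CPM. MEC-like cells, the contractile epithelial cells around the acini, followed with 15310, 16710 and 17880. Macrophage-like cells stood above MEC-like cells in each library, and the ranges did not overlap. In duct-like cells the level was 3165, 5364 and 5093, and in fibroblast-like cells 2229, 4757 and 4837. Their ranges overlapped, although duct-like cells were the higher in 3 of 3 libraries, by a mean log2 ratio of 0.25 ± 0.23. Endothelial-like cells lay at 929 ± 137, above free RNA in each library, whereas acinar-like cells lay at 201, 64.4 and 85.5, below it. Cells with at least 1000 UMIs were thinned to 1000, and shallower cells were left out of these shares (322 of 2885 fibroblast-like, 249 of 1783 endothelial-like and 214 of 1513 lymphoid-like cells). An *Apoe* UMI was then found in 98.5 ± 0.58% of MEC-like and 93.2 ± 3.57% of macrophage-like cells. Acinar-like cells had 5.25 ± 7.30%, but tear products took up most of their 1000 UMIs, so this share is not a like measure. Lymphoid-like cells, at 2.77 ± 3.13%, give the background. The median cell held 3582, 1753 and 1442 UMIs among macrophage-like and 2282, 1328 and 1028 among lymphoid-like cells. Without thinning the shares were 99.4%, 95%, 15.2% and 5.44%. In edgeR's quasi-likelihood test, *Apoe* was higher in macrophage-like cells than in all other cells of named classes by 4.31 on the log2 scale (SE 0.28, adjusted p = 1.01e-19) and in MEC-like cells by 1.81 (SE 0.19, adjusted p = 3.14e-13), in 3 of 3 libraries each.

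*Apod* (chr16:31296192-31314808, minus strand) encodes apolipoprotein D, a secreted lipocalin that binds small lipids. Fibroblast-like cells had 4430, 7001 and 7281 CPM. MEC-like cells were next by their mean, with 25.5, 75.4 and 35.2, which is near free RNA. They overlapped with other myeloid-like cells at 33.1, 10.3 and 48.0, which were the higher of the pair in 2 of 3 libraries. No further class passed 50 in any library, so the gap to the fibroblast-like cells was wide in each library. A UMI was found in 85.4 ± 3.41% of fibroblast-like cells at 1000 UMIs and in 0.541 ± 0.477% of lymphoid-like cells (91.7% and 0.568% without thinning). *Apod* was higher in fibroblast-like cells by 9.44 on the log2 scale (SE 0.24, edgeR, adjusted p = 2.20e-09) and was called lower in the other 9 classes.

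*Pltp* (chr2:164839518-164857711, minus strand) encodes phospholipid transfer protein, which moves phospholipid between lipoprotein particles. Endothelial-like cells had 962, 617 and 520 CPM. MEC-like cells had 238, 309 and 332 and duct-like cells 148, 183 and 217. The endothelial level was the highest in each library, with no overlap with MEC-like cells. Macrophage-like cells split by library, with 32.8 CPM in the female library and 359 and 274 in the male libraries, so that this class ranked below duct-like cells in the female library and above them in the male ones. *Pltp* was higher in endothelial-like cells by 3.49 (log2, SE 0.21, edgeR, adjusted p = 4.74e-20) and in MEC-like cells by 1.42 (SE 0.26, adjusted p = 3.64e-06), in 3 of 3 libraries. In macrophage-like cells it was called higher by 1.52 (log2, SE 0.44, edgeR, adjusted p = 0.00313), yet the log2 ratio was -1.63 in the female library against 2.82 and 2.80 in the male libraries. That call was lost without male library 1 (0.57, edgeR, adjusted p = 0.418), without male library 2 (0.60, edgeR, adjusted p = 0.290) and with DESeq2.

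*Lpl* (chr8:68880491-68907448, plus strand) encodes lipoprotein lipase. Fibroblast-like cells had 1512, 1276 and 1000 CPM. Mural-like cells, the pericytes and smooth muscle cells of vessels, had 285, 221 and 105 on 28, 7 and 3 UMIs, and macrophage-like cells had 126, 192 and 253. Those last 2 classes overlapped, and both lay below fibroblast-like cells in each library. Fibroblast markers summed to 285 to 630 CPM in mural-like cells against at least 27650 in fibroblast-like cells, and their part in the mural level was not tested. Endothelial-like cells had 2, 2 and 1 UMIs of *Lpl* in all, a level of 4.17 ± 2.74. *Lpl* was found in 45.2 ± 12.9% of fibroblast-like cells at 1000 UMIs and in 0.0858 ± 0.149% of lymphoid-like cells (60.7% and 0.161% without thinning). It was higher in fibroblast-like cells by 5.42 on the log2 scale (SE 0.22, edgeR, adjusted p = 1.99e-08), and in macrophage-like cells the difference of 0.65 (SE 0.31, edgeR, adjusted p = 0.0823) did not pass.

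*Cd36* (chr5:17781690-17888801, minus strand) encodes the scavenger receptor and fatty acid transporter CD36, and with 677 UMIs in kept cells it was the most sparsely counted of the 8. Macrophage-like cells had 98.9, 133 and 79.7 CPM, and endothelial-like cells had 90.4, 75.5 and 33.4. The macrophage-like level was the higher of the pair in each library, although the ranges overlapped. Mural-like cells had 3, 4 and 0 UMIs. No *Cd36* UMI was counted in any duct-like, *Ltf+*-like, MEC-like or lymphoid-like cell. Taking 3 UMIs as the limit that a count of 0 allows over the group, *Cd36* was at least 26.9-fold lower in duct-like, 14.4-fold lower in *Ltf+*-like, 10.0-fold lower in MEC-like and 10.8-fold lower in lymphoid-like cells than in the cells each was compared with. It was higher in macrophage-like cells by 4.70 (log2, SE 0.33, edgeR, adjusted p = 2.99e-18) and in endothelial-like cells by 2.09 (SE 0.31, adjusted p = 1.15e-07), in 3 of 3 libraries each. In lymphoid-like cells the call rested on the female library, since without it the edgeR adjusted p was 0.127 (log2 fold change -8.12).

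*Fabp4* (chr3:10204088-10208576, minus strand) and *Fabp5* (chr3:10012548-10016607, plus strand) lie on the same chromosome and encode related fatty acid binding proteins of the cytosol, and sharing of reads between them was not tested. *Fabp4*, known from adipocytes, macrophages and the endothelium of small vessels, had 1109, 1397 and 1254 CPM in endothelial-like cells. Mural-like cells had 244, 189 and 70.1 on 24, 6 and 2 UMIs. The endothelial level exceeded the mural one in each library, and endothelial markers had 3 UMIs in all in mural-like cells. Macrophage-like cells had 3, 10 and 10 UMIs of *Fabp4*, a level of 14.0 ± 11.7 beside free RNA at 14.8, 16.3 and 13. *Fabp4* was higher in endothelial-like cells by 8.03 (log2, SE 0.24, edgeR, adjusted p = 1.32e-33). It was found in 24.4 ± 2.98% of them at 1000 UMIs and in 0.163 ± 0.183% of lymphoid-like cells (26.0% and 0.157% without thinning).

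*Fabp5* UMIs were found in all 10 classes in every library, and several levels differed widely between libraries. Other myeloid-like cells had 917, 848 and 870 CPM, and MEC-like cells had 575, 1048 and 900. The order of these 2 classes changed between libraries. Macrophage-like cells had 48.2 CPM in the female library and 449 and 656 in the male libraries. Acinar-like cells had 67, 258 and 213 and endothelial-like cells 61.4, 161 and 167, and free RNA moved the same way between libraries (46.2, 332 and 274). In the male libraries both of these classes lay below free RNA, and in macrophage-like cells the level after subtracting the expected free RNA was 48.3, 460 and 689. *Fabp5* was higher in other myeloid-like cells by 2.57 (log2, SE 0.20, edgeR, adjusted p = 1.38e-34) and in MEC-like cells by 2.07 (SE 0.24, adjusted p = 8.93e-12), in 3 of 3 libraries. The call in macrophage-like cells (0.89 on the log2 scale, SE 0.28, edgeR, adjusted p = 0.00623) had a ratio of -0.42 in the female library and 1.17 and 1.85 in the male libraries. It was lost without male library 1 (0.73, edgeR, adjusted p = 0.189), without male library 2 (0.38, edgeR, adjusted p = 0.424) and with DESeq2. In endothelial-like cells *Fabp5* was called lower by -0.84 (log2, SE 0.21, edgeR, adjusted p = 0.00103), a direction that turned to 0.60 when total UMIs set the scale and a call that was lost without male library 1 (-0.80, edgeR, adjusted p = 0.0539).

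*Abca1* (chr4:53030787-53159895, minus strand) encodes the cholesterol exporter ABCA1, and no class stood far above the rest. Macrophage-like cells had 196, 261 and 291 CPM, fibroblast-like cells 145, 158 and 181, and endothelial-like cells 113, 174 and 138. Macrophage-like cells were highest in each library, and fibroblast-like and endothelial-like cells did not separate. The level was 106 ± 20.1 in MEC-like and 72.8 ± 5.72 in duct-like cells, and 22.8 ± 6.49 in acinar-like cells, next to free RNA at 14.2, 9.27 and 12.1. *Abca1* was higher in macrophage-like cells by 2.56 (log2, SE 0.25, edgeR, adjusted p = 1.20e-12) and in fibroblast-like cells by 1.13 (SE 0.23, adjusted p = 0.00253). The call in endothelial-like cells (0.72, SE 0.24, edgeR, adjusted p = 0.0131) was lost without male library 1 (0.50, edgeR, adjusted p = 0.328), without male library 2 (0.62, edgeR, adjusted p = 0.0981) and with DESeq2.

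*Abca1* and *Apoe* had the most alike levels of any pair of the 8 over the 10 classes in 3 libraries (Pearson r = 0.847 over 30 points that share library, depth and free RNA). The promoter of *Abca1*, a known target of the sterol-sensing nuclear receptor LXR, is shown for that reason, as the 250 bases before the start of the gene (RefSeq, GRCm38.p6, chr4:53159896-53160145, minus strand, 5′ to 3′). Capitals mark, in order, the E-box CACGTG, a match to the LXR-type direct repeat, read on the opposite strand and searched with its variable bases left open, and the TATA box TATAAA.
*Abca1* promoter: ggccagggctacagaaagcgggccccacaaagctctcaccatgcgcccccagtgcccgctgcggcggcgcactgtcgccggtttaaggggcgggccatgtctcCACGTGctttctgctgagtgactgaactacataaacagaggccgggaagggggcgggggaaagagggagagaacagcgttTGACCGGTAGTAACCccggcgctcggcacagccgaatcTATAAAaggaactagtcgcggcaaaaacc
The 3 motifs begin 147, 67 and 29 bases before the start. Both strands were searched in windows of this length for 32851 promoters, of which 6.02% held CACGTG, 0.621% held the LXR-type repeat and 12.4% held TATAAA. These matches are a description of the letters, and the windows of *Apoe* and *Pltp* held none of the 3. Promoters of *Apod* and *Cd36* were also in the promoter set but were not examined singly, and the set held none for *Lpl*, *Fabp4* and *Fabp5*.

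**Figure D2:**
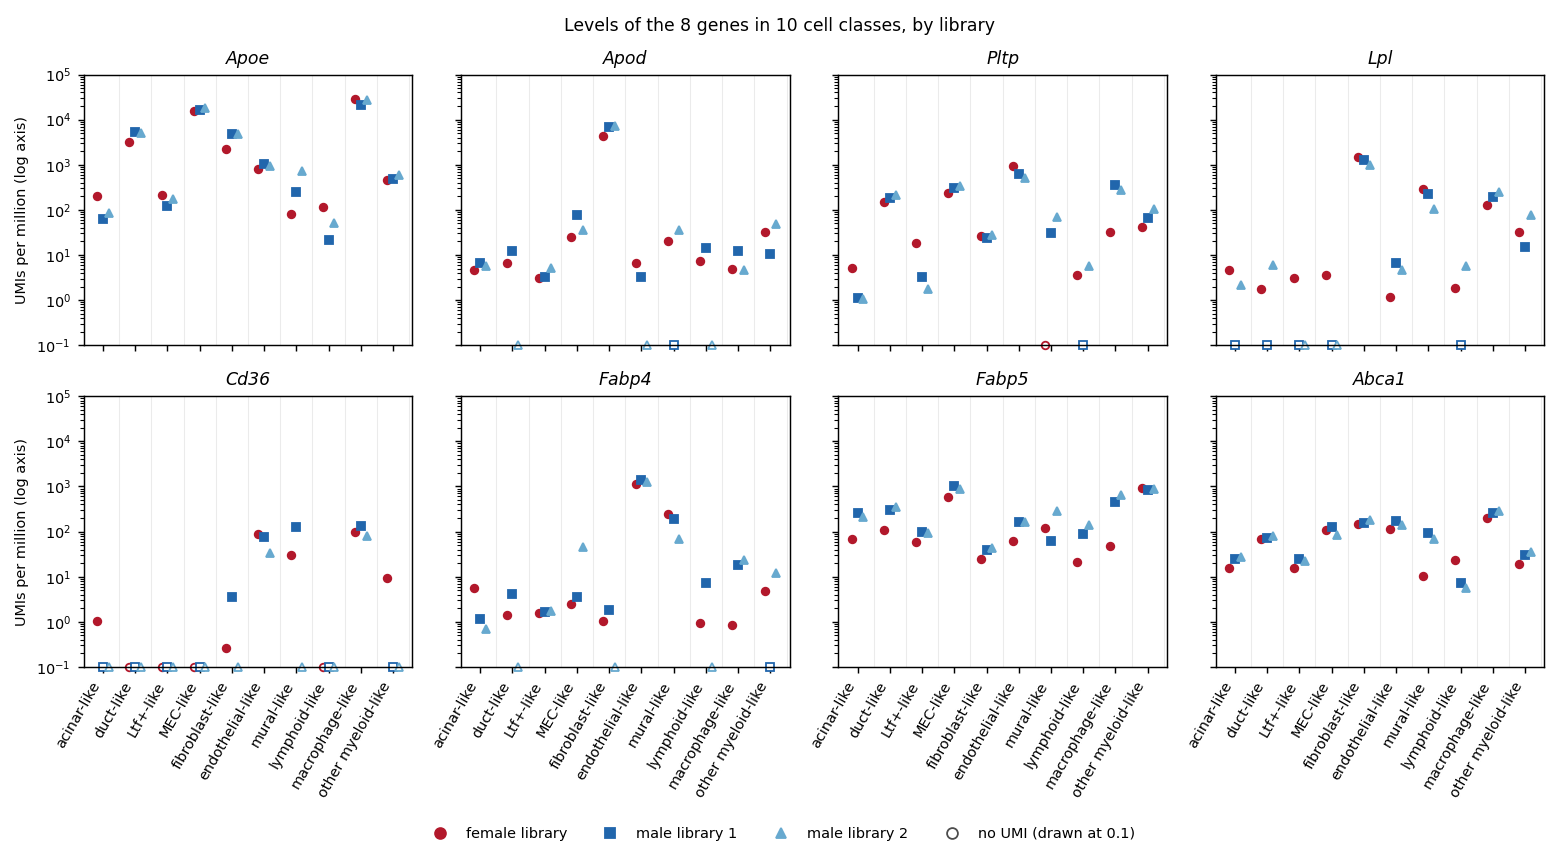
Level of each of the 8 genes (y axis, CPM over UMIs outside tear-product and mitochondrial genes, log axis) in 10 cell classes (x axis), 1 point per library, with open points for classes without a UMI. *Apod* peaks in fibroblast-like and *Fabp4* in endothelial-like cells in all 3 libraries, and *Pltp* and *Fabp5* in macrophage-like cells are far lower in the female library (32.8 and 48.2) than in the male ones.

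Counted over the classes, each of which was set against all other cells of named classes and so shares most of its comparison cells with the rest, the 8 genes were called higher 16 times and lower 49 times, or 25 and 43 times when total UMIs set the scale. All 8 passed the filter on low counts in each of these comparisons. In macrophage-like cells 5 of the 8 were called higher and 2 lower, where 47.3% of all genes tested were called (17.9% higher and 29.4% lower), and the median log2 fold change of the 8 was 1.20 against -0.31 over all genes. In endothelial-like cells 4 were higher and 4 lower (40.9% of genes called, 15.3% higher and 25.6% lower, median -0.06 against -0.19). In fibroblast-like cells 3 were higher and 4 lower (40.8% of genes called, 17.6% higher and 23.2% lower), the higher ones being *Apod*, *Lpl* and *Abca1*. *Apoe* did not pass there at -0.33 (SE 0.41), a value that turned to 1.35 when total UMIs set the scale. MEC-like cells had 3 higher and 4 lower (32.9% of genes called, 11.1% higher and 21.8% lower), with *Apoe*, *Pltp* and *Fabp5* as the higher ones. Other myeloid-like cells had *Fabp5* higher and 5 lower (31% of genes called, 10.9% higher and 20% lower), of which *Abca1* (-0.80, edgeR, adjusted p = 0.140) and *Lpl* (-1.09, edgeR, adjusted p = 0.0670) were lost without the female library.

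The remaining classes had no member called higher. In acinar-like cells, the makers of tear proteins, 7 of the 8 were lower (55.9% of genes called, 23.2% higher and 32.7% lower) and *Fabp5* did not pass at -0.20 (SE 0.22). In lymphoid-like cells all 8 were lower (40.7% of genes called, 12.1% higher and 28.5% lower). In *Ltf+*-like cells all 8 were also lower (22.4% of genes called, 7.43% higher and 15% lower), but *Fabp5* (-0.80, edgeR, adjusted p = 0.456) and *Abca1* (-1.49, edgeR, adjusted p = 0.154) did not pass when total UMIs set the scale. Duct-like cells had 4 lower (29.8% of genes called, 9.17% higher and 20.6% lower), namely *Apod*, *Lpl*, *Cd36* and *Fabp4*, whereas *Apoe*, *Pltp*, *Fabp5* and *Abca1* did not pass. *Apoe* in duct-like cells had a log2 ratio of -1.43 in the female library and 0.34 and 0.30 in the male ones, and its fitted value of -0.25 turned to 1.45 when total UMIs set the scale. The cells set against the duct-like ones had *Apoe* at 7642, 3701 and 3472 CPM. Mural-like cells had 3 lower (14% of genes called, 4.38% higher and 9.62% lower), namely *Apoe*, *Apod* and *Pltp*, of which *Pltp* was the one whose call was lost without the female library (-1.40, edgeR, adjusted p = 0.425). With DESeq2 in place of edgeR, the calls of *Cd36* in duct-like, *Pltp* in mural-like and *Abca1* in other myeloid-like cells were also lost.

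**Figure D3:**
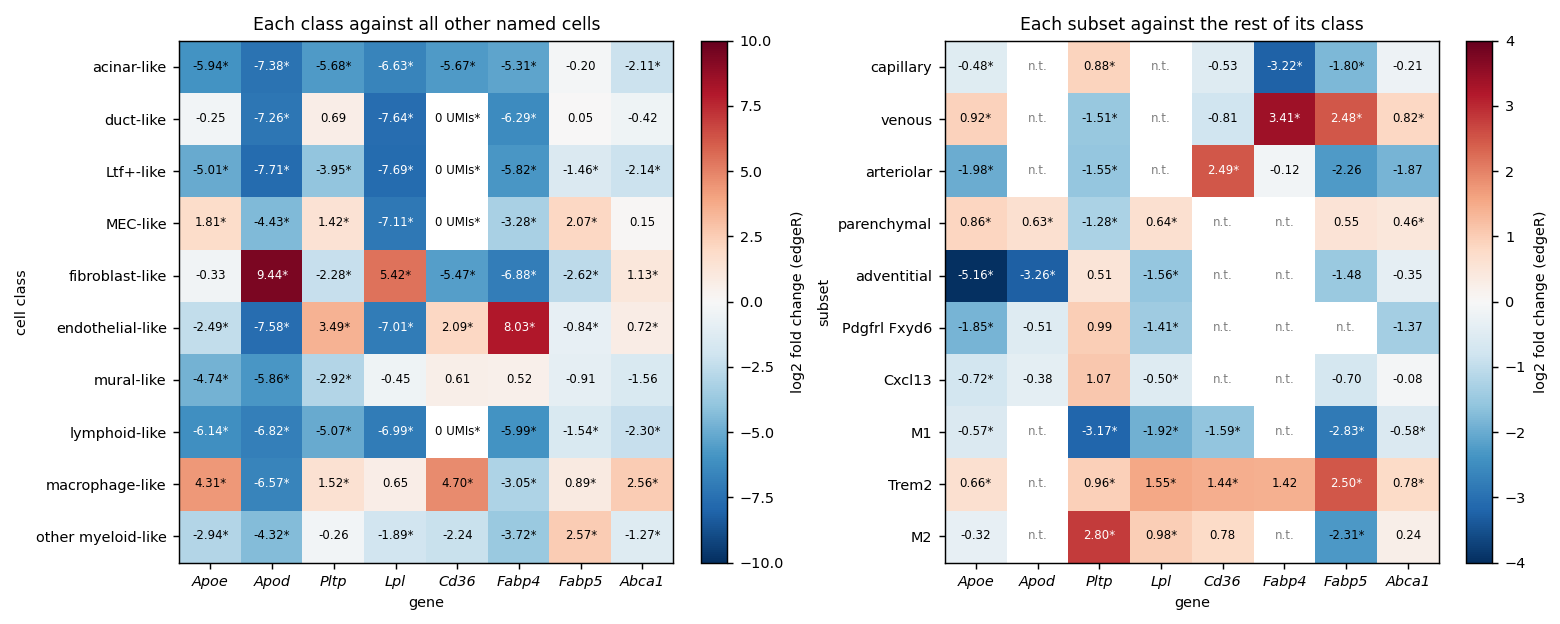
Log2 fold changes (edgeR, colour and number) of the 8 genes (x axis) for each cell class against all other named cells (left) and each subset against the rest of its class (right). An asterisk marks an adjusted p under 0.05, "0 UMIs" a class in which the gene had no UMI, and n.t. a gene that did not pass the filter. The *Trem2* row holds 6 called higher values and the M1 row 6 called lower ones.

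Within macrophage-like cells the genes followed the subsets named from inflammatory (M1), *Trem2* and resident (M2) markers. *Trem2* macrophages are known as lipid-laden cells of diseased vessels and fat. In the *Trem2*-like subset (429 cells), 6 of the 7 genes tested were called higher than in the remaining macrophage-like cells, beside 11.2% of all genes (4.15% higher and 7.05% lower). In the M1-like subset (963 cells) 6 of 6 were lower (12.2% of genes called, 7.56% higher and 4.67% lower). *Apod*, at 48.5 or less in every subset and library, was not tested, and *Fabp4* was tested in the *Trem2*-like subset only and did not pass (1.42, SE 0.93).

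*Fabp5* was the gene with the largest called fold change in *Trem2*-like cells, where its level was 131, 1164 and 1837 CPM. M1-like cells had 12.3, 80.0 and 68.2, and M2-like cells 29.4, 170 and 99.7. *Trem2*-like cells were highest in each library, and within each subset the female library was lowest. The fold change was 2.50 on the log2 scale (SE 0.16, edgeR, adjusted p = 1.68e-11). *Lpl* was 300, 409 and 438 in *Trem2*-like against 49.4, 34.3 and 53.1 in M1-like cells, with no overlap, and was higher in the *Trem2*-like subset by 1.55 (SE 0.15, edgeR, adjusted p = 4.67e-08). *Cd36* was 229, 233 and 135 in *Trem2*-like against 39.5, 22.8 and 60.7 in M1-like cells (1.44, SE 0.17, edgeR, adjusted p = 6.11e-07 for the *Trem2*-like subset). M2-like cells had *Cd36* at 338, 218 and 49.9 on 23, 9 and 1 UMIs, so a high level was not particular to *Trem2*-like cells. The M2-like difference of 0.78 (SE 0.36, edgeR, adjusted p = 0.159) did not pass. *Apoe* and *Abca1* rose by smaller steps, 0.66 (SE 0.08, edgeR, adjusted p = 7.51e-07) and 0.78 (SE 0.14, adjusted p = 0.000273). *Apoe* was at 42800, 30810 and 39410 CPM in *Trem2*-like and at 20480, 13800 and 17660 in M1-like cells. In M2-like cells it was at 39710, 27550 and 22230. An *Abca1* UMI was found at 1000 UMIs in 18.9 ± 1.59% of *Trem2*-like and 8.06 ± 1.31% of M1-like cells (41.4% and 15.5% without thinning). M2-like cells were near the *Trem2*-like ones, at 18.0 ± 4.3% (35.4% without thinning). *Abca1* levels were 319, 416 and 421 CPM in *Trem2*-like and 309, 485 and 399 in M2-like cells.

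M2-like macrophages (112 cells) were marked among the 8 by *Pltp*, at 691, 1723 and 1047 CPM. *Trem2*-like cells had 52.2, 564 and 522 and M1-like cells 2.47, 74.2 and 22.8. The order M2-like, *Trem2*-like, M1-like held in each library. *Pltp* was higher in M2-like cells by 2.80 (log2, SE 0.29, edgeR, adjusted p = 1.51e-16). Its log2 ratios in the 3 libraries, 4.79, 2.26 and 1.42, were more widely spread than that SE. It was found in 43.9 ± 11.7% of M2-like cells at 1000 UMIs (62.6% without thinning). Endothelial markers summed to 0 to 218 CPM in these cells, on 9 UMIs in all, and their part in the *Pltp* level was not tested. Of the 6 genes tested in this subset, 2 were higher and 1 lower, beside 13.3% of all genes called (3.63% higher and 9.63% lower). *Fabp5* was lower by -2.31 (log2, SE 0.43, edgeR, adjusted p = 4.31e-06), on 2, 7 and 2 UMIs. *Lpl* was called higher by 0.98 (SE 0.30, edgeR, adjusted p = 0.0128), but its level was 382, 170 and 1196 on 26, 7 and 24 UMIs, and the call was lost without male library 2 (0.59, edgeR, adjusted p = 0.477) and with DESeq2. *Apoe* in M2-like cells was at -0.32 (SE 0.13, edgeR, adjusted p = 0.0979), which turned to 0.25 when total UMIs set the scale. M2-like cells were 2.55% of the macrophage-like cells in the female library and 8.12 and 5.17% in the male ones, and *Trem2*-like cells were 15.0, 19.7 and 20.1%. The lower *Pltp* level of the female macrophage-like cells was also present within each of the 3 subsets.

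The smaller differences in the M1-like subset were *Apoe* at -0.57 (SE 0.13, edgeR, adjusted p = 0.00120) and *Abca1* at -0.58 (SE 0.16, adjusted p = 0.00732). Without male library 1 the values were -0.56 (edgeR, adjusted p = 0.435) and -0.50 (edgeR, adjusted p = 0.0983), and without male library 2 they were -0.56 (edgeR, adjusted p = 0.0872) and -0.67 (edgeR, adjusted p = 0.139), so both calls needed each male library, and that of *Abca1* was also lost with DESeq2. *Pltp*, *Fabp5*, *Lpl* and *Cd36* were lower by more, at -3.17 (SE 0.26), -2.83 (SE 0.21), -1.92 (SE 0.20) and -1.59 (SE 0.21), and those calls held without any 1 library. The comparisons of the 3 subsets share cells, since each subset stands among the remaining cells of the others.

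**Figure D4:**
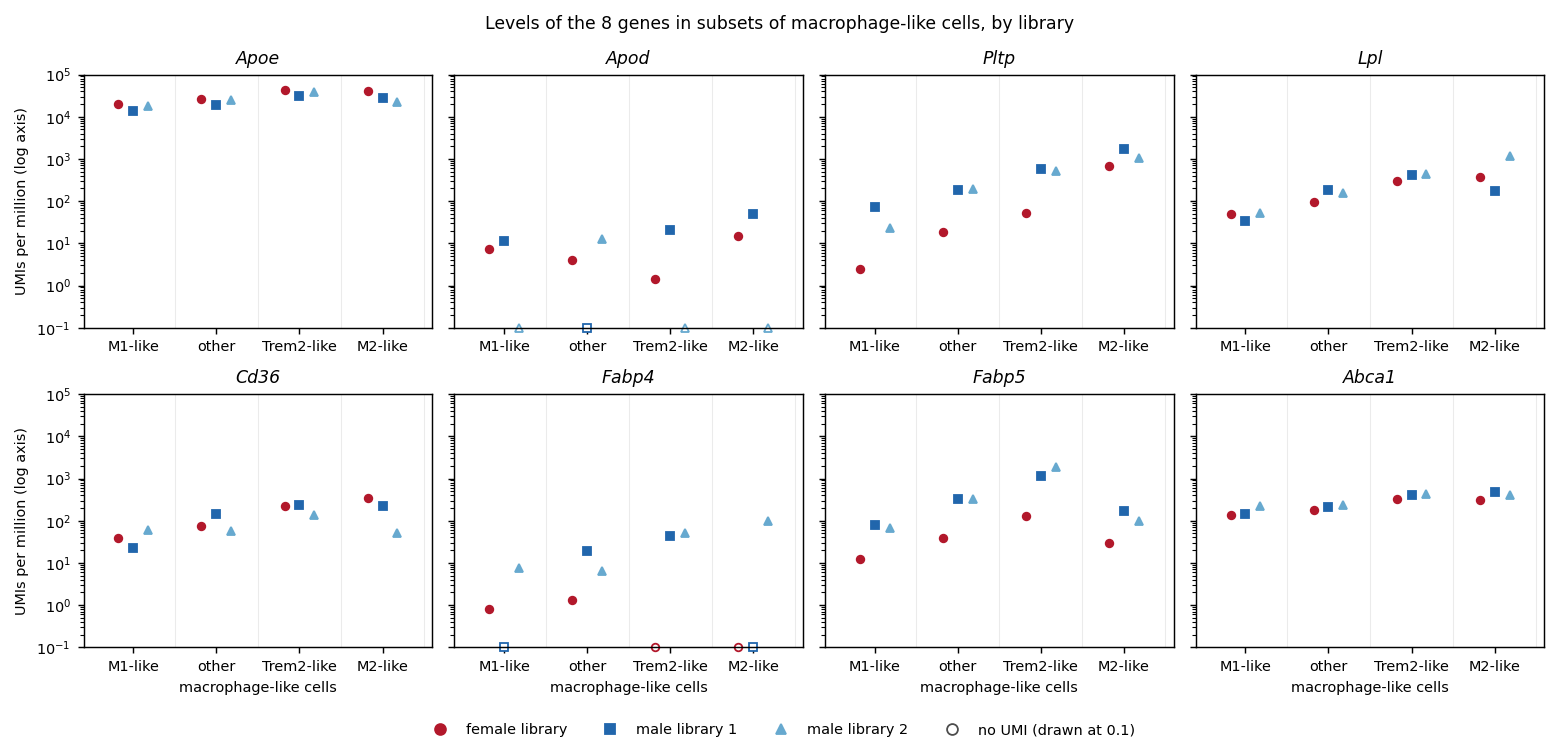
Level of the 8 genes (y axis, CPM, log axis) in M1-like, other, *Trem2*-like and M2-like macrophage-like cells (x axis), 1 point per library. *Pltp* climbs from M1-like to M2-like cells in every library (2.47 to 691 in the female library), and *Fabp5* peaks in *Trem2*-like cells.

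Among the remaining myeloid cells, given as levels without a test, *Fabp5* came mainly from migratory dendritic cells (92 cells), which carry antigen to lymph nodes. Their level was 3668, 5857 and 4626 CPM. The other cells named dendritic had 9.06, 80.7 and 78.5. The libraries held 18, 35 and 39 migratory dendritic cells and 36, 138 and 112 of the others. The 2 kinds did not overlap in any library, and an *Fabp5* UMI was found in 64.3 ± 8.09% of migratory dendritic cells at 1000 UMIs (75.9% without thinning). Monocytes had *Apoe* at 1485, 1952 and 1571 and *Pltp* at 186, 219 and 291 CPM, both above the dendritic cells in each library. There were 21, 60 and 82 monocytes, and all other myeloid-like cells together had 9, 13 and 17 UMIs of *Pltp*.

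Endothelial-like cells were divided by capillary, venous and arteriolar markers. Of the 6 genes tested in each subset, venous cells (397) had 4 higher and 1 lower (13.1% of genes called, 7.71% higher and 5.42% lower), capillary cells (694) 1 higher and 3 lower (13.6% of genes called, 4.78% higher and 8.84% lower), and arteriolar cells (107) 1 higher and 2 lower (7.55% of genes called, 2.7% higher and 4.85% lower). *Fabp4* was the main venous gene, at 3995, 3776 and 3193 CPM. In capillary cells it was at 149, 519 and 237, and in arteriolar cells at 1293, 2953 and 1398. Of these 3 subsets, venous cells were highest and capillary cells lowest in each library. A *Fabp4* UMI was found in 65.8 ± 6.44% of venous cells at 1000 UMIs and in 6.62 ± 3.68% of capillary cells (71.4% and 7.87% without thinning). *Fabp4* was higher in venous cells by 3.41 (log2, SE 0.21, edgeR, adjusted p = 3.01e-11) and lower in capillary cells by -3.22 (SE 0.15, adjusted p = 2.09e-88), 2 tests that share cells. The capillary log2 ratios in the 3 libraries were -3.95, -2.25 and -3.09.

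*Fabp5* was, like *Fabp4*, higher in venous than in capillary cells, at 216, 222 and 361 CPM against 21.0, 136 and 39.5. The venous levels rest on 79, 17 and 25 UMIs. Free RNA carried *Fabp5* at 46.2, 332 and 274 CPM. The venous level lay below it in male library 1, and the capillary level lay below it in each library. That value is the level within free RNA and not the part that free RNA adds to these cells. Arteriolar cells had 24.6 CPM on 3 UMIs in the female library and no *Fabp5* UMI in the male libraries, and the difference there (-2.26, SE 0.81, edgeR, adjusted p = 0.0629) did not pass. *Fabp5* was higher in venous cells by 2.48 (log2, SE 0.36, edgeR, adjusted p = 2.00e-05). That call was kept under all 13 alternatives, among them the fit with free RNA subtracted. *Apoe* and *Abca1* were also called higher in venous cells, by 0.92 (SE 0.18, edgeR, adjusted p = 0.000894) and 0.82 (SE 0.24, adjusted p = 0.0217). The *Abca1* call was lost with DESeq2, without the female library (0.69, edgeR, adjusted p = 0.201) and without male library 1 (0.77, edgeR, adjusted p = 0.132). *Pltp* was the capillary gene, at 1227, 791 and 948 in capillary and 424, 261 and 101 in venous cells, without overlap. It was higher in capillary cells by 0.88 (log2, SE 0.15, edgeR, adjusted p = 6.22e-08). *Apoe* was called lower there by -0.48 (SE 0.14, edgeR, adjusted p = 0.00473), but the value turned to 0.072 when total UMIs set the scale, and the call was lost without the female library (-0.28, edgeR, adjusted p = 0.301), without male library 2 (-0.55, edgeR, adjusted p = 0.0608) and with DESeq2. Erythroid markers summed to 0 to 529 CPM in capillary cells, on 455 UMIs in all, and 1 of the clusters named capillary (200 of the 694 cells) was led by the haemoglobin genes *Hbb-bs*, *Hba-a1* and *Hba-a2*. At clustering resolution 0.6, where the cluster led by these genes had no name, the capillary values were 0.71 for *Pltp* (SE 0.14, edgeR, adjusted p = 8.54e-06), -3.79 for *Fabp4* (SE 0.18, adjusted p = 2.59e-92) and -0.62 for *Apoe* (SE 0.14, adjusted p = 0.000177).

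*Cd36* singled out the arteriolar cells, with 491, 328 and 155 CPM, but on 60, 3 and 1 UMIs. Capillary cells had 66.4, 90.7 and 65.9, below the arteriolar cells in each library. The fold change was 2.49 (log2, SE 0.43, edgeR, adjusted p = 4.94e-07), and without the female library it was 1.70 (edgeR, adjusted p = 0.346). *Pltp* was called lower in arteriolar cells by -1.55 (SE 0.46, edgeR, adjusted p = 0.0150), a call lost with DESeq2, without the female library (-0.62, edgeR, adjusted p = 0.696) and without male library 1 (-1.63, edgeR, adjusted p = 0.382). *Apoe* was lower there by -1.98 (SE 0.45, edgeR, adjusted p = 0.000525), and without male library 1 the adjusted p was 0.104 at -2.07 (edgeR). Male libraries 1 and 2 held 18 and 17 arteriolar cells.

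Fibroblast-like cells were divided into parenchymal (1714 cells), adventitial (189), *Pdgfrl Fxyd6* (98) and *Cxcl13* (325) subsets. The parenchymal cells, which lie between the acini, had 4 of 6 tested genes higher and 1 lower (12.4% of genes called, 5.54% higher and 6.83% lower). The adventitial cells, which sheathe larger vessels and ducts, had 3 of 6 lower (15.3% of genes called, 6.59% higher and 8.72% lower). *Pdgfrl Fxyd6* cells had 2 of 5 lower (6.3% of genes called, 2.87% higher and 3.43% lower) and *Cxcl13* cells 2 of 6 lower (5.44% of genes called, 1.99% higher and 3.45% lower). *Cd36* and *Fabp4* were too low to be tested in any of the 4 subsets.

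*Apoe* had the largest called fold change among the fibroblast subsets. Its level was 2517, 6135 and 6840 CPM in parenchymal cells and 58.6, 65.3 and 304 in adventitial cells, which is below free RNA. The subsets did not overlap. *Apoe* was lower in adventitial cells by -5.16 (log2, SE 0.25, edgeR, adjusted p = 9.03e-15) and higher in parenchymal cells by 0.86 (SE 0.13, adjusted p = 0.00107). At 1000 UMIs it was found in 80.3 ± 15.1% of parenchymal and 5.40 ± 2.00% of adventitial cells (87.3% and 10.4% without thinning). *Apod* was at 5069, 8302 and 9380 in parenchymal and 456, 1241 and 785 in adventitial cells, and was lower in the adventitial subset by -3.26 (SE 0.18, edgeR, adjusted p = 1.61e-13). *Lpl* was at 1772, 1532 and 1231 in parenchymal and 482, 555 and 481 in adventitial cells, lower in the latter by -1.56 (SE 0.20, edgeR, adjusted p = 1.06e-06). All 3 genes thus had parenchymal levels above every adventitial one.

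*Pltp* ran against them and was lower in parenchymal cells by -1.28 (log2, SE 0.31, edgeR, adjusted p = 0.0158), on 45, 5 and 1 UMIs. With DESeq2 the value was -1.47 and did not pass (DESeq2 adjusted p = 0.338). *Abca1* was called higher in parenchymal cells by 0.46 (SE 0.14, edgeR, adjusted p = 0.0478), a call that was lost with DESeq2 and without the female library (0.46, edgeR, adjusted p = 0.296), male library 1 (0.44, edgeR, adjusted p = 0.177) or male library 2 (0.46, edgeR, adjusted p = 0.117). In *Pdgfrl Fxyd6* cells *Apoe* was lower by -1.85 (SE 0.25, edgeR, adjusted p = 6.98e-12) and *Lpl* by -1.41 (SE 0.29, adjusted p = 4.67e-05). The *Apoe* log2 ratios there, -0.58, -3.22 and -2.27 on 190, 14 and 24 UMIs, were more widely spread than that SE. *Lpl* rested on 76, 14 and 8 UMIs. The *Cxcl13* cells had *Apoe* at -0.72 (SE 0.15, edgeR, adjusted p = 8.13e-05) and *Lpl* at -0.50 (SE 0.17, adjusted p = 0.0435). Without male library 1 these were -0.56 (edgeR, adjusted p = 0.358) and -0.37 (edgeR, adjusted p = 0.841), and *Lpl* was also lost without male library 2 (-0.49, edgeR, adjusted p = 0.0706) and with DESeq2.

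**Figure D5:**
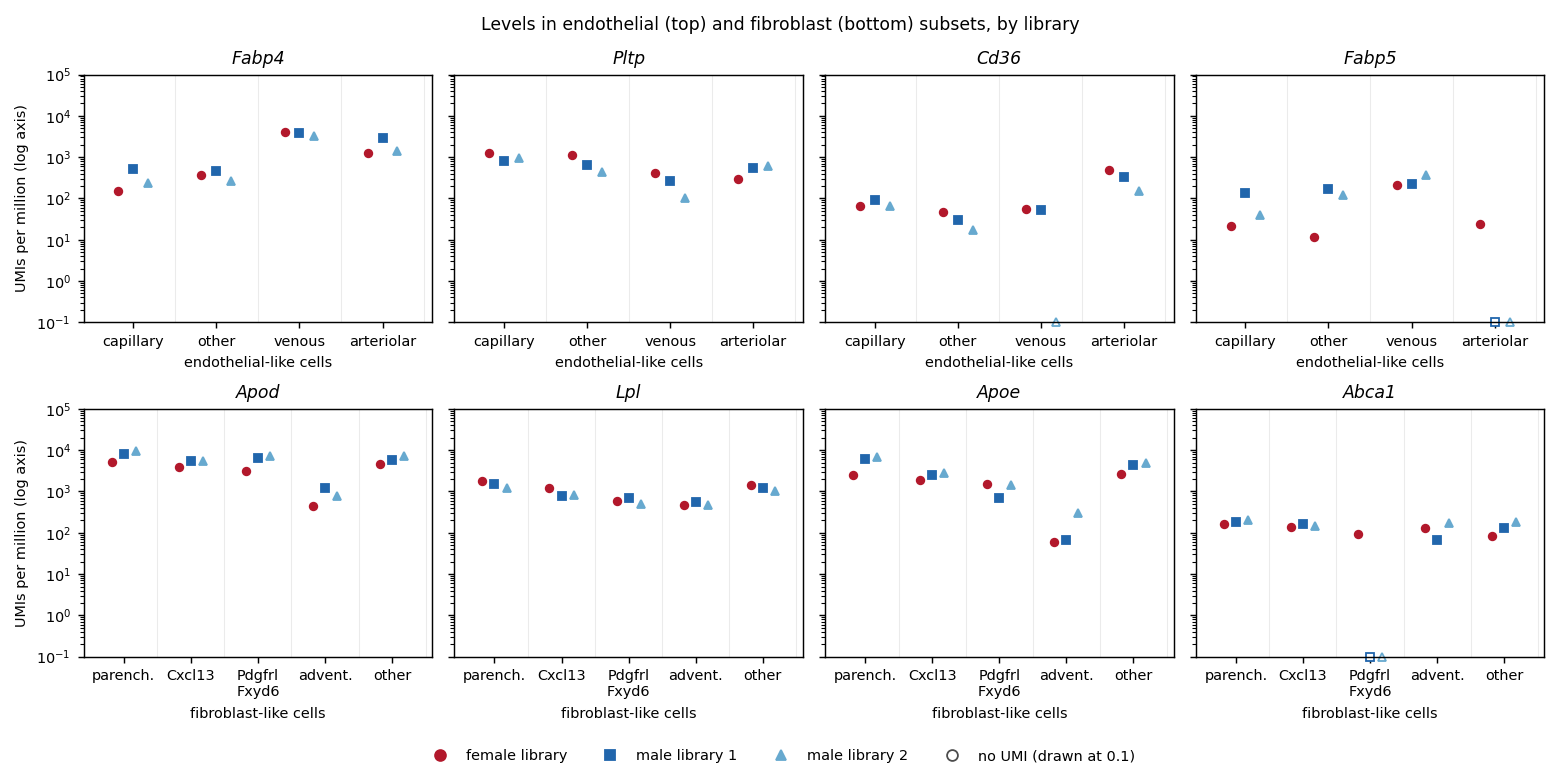
Level (y axis, CPM, log axis) of *Fabp4*, *Pltp*, *Cd36* and *Fabp5* in endothelial subsets (top) and of *Apod*, *Lpl*, *Apoe* and *Abca1* in fibroblast subsets (bottom), 1 point per library, with open points for subsets without a UMI. Venous cells hold the highest *Fabp4* levels (3193 to 3995), and adventitial cells the lowest *Apoe* levels (58.6 to 304).

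The other genes of lipid transport were taken from a list of 48 that holds apolipoproteins, lipases, receptors, transporters, binding and storage proteins and regulators. In brackets beside each count are the shares of all tested genes that edgeR called, higher first and then lower. In macrophage-like cells 15 of the 40 tested were higher and 10 lower (17.9% and 29.4% of all genes), led by *Apoc2*, the activator of lipoprotein lipase (7.02, SE 0.41), and the scavenger receptors *Msr1* (6.57, SE 0.50) and *Olr1* (6.53, SE 0.94). In endothelial-like cells 10 of 39 were higher and 18 lower (15.3% and 25.6%), led by *Gpihbp1*, which anchors lipoprotein lipase to the capillary wall (8.77, SE 0.34), the HDL receptor *Scarb1* (7.12, SE 0.27) and the lysolipid transporter *Mfsd2a* (6.70, SE 0.74). *Lpl* itself was nearly absent from these cells, as given above. In fibroblast-like cells 9 of 39 were higher and 13 lower (17.6% and 23.2%), led by the receptor *Lrp1* (4.71, SE 0.31), the lipase inhibitor *Angptl4* (4.43, SE 0.56) and the LXR gene *Nr1h3* (3.67, SE 0.29). The lipase gene and a gene for its inhibitor were thus both called higher in fibroblast-like cells, and the gene for its anchor in endothelial-like cells.

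In the epithelium, MEC-like cells had 8 of 39 higher and 20 lower (11.1% and 21.8%), led by *Apoc1* (3.91, SE 0.29), *Dbi*, which binds acyl-CoA (2.53, SE 0.22), and *Cav1* (2.05, SE 0.26). Duct-like cells had 4 of 38 higher and 21 lower (9.17% and 20.6%), led by *Apoc1* (2.72, SE 0.28), and acinar-like cells 5 of 42 higher and 25 lower (23.2% and 32.7%), led by the fatty acid transporter *Slc27a2* (3.58, SE 0.32). *Ltf+*-like cells had 6 of 37 higher and 11 lower (7.43% and 15%), led by *Acsl1* (2.46, SE 0.20). Of the subsets, *Trem2*-like macrophages had 9 of 23 higher and 1 lower (4.15% and 7.05%), led by *Apoc2* (2.26, SE 0.22), *Lrp1* (1.69, SE 0.17) and the lysosomal acid lipase gene *Lipa* (1.19, SE 0.15). M1-like macrophages had 2 of 19 higher and 6 lower (7.56% and 4.67%), and M2-like ones 1 of 15 higher (*Stab1*, 1.69, SE 0.32) and 6 lower (3.63% and 9.63%). Capillary cells had 3 of 14 higher (4.78%), led by *Gpihbp1* (1.31, SE 0.17), and parenchymal fibroblasts had 3 of 19 higher and 3 lower (5.54% and 6.83%). Among the remaining comparisons, lymphoid-like cells had 5 of 39 higher and 23 lower (12.1% and 28.5%), other myeloid-like cells 8 of 38 higher and 14 lower (10.9% and 20%), mural-like cells 1 of 36 higher and 5 lower (4.38% and 9.62%), venous cells 4 of 14 lower (5.42%), arteriolar cells 1 of 13 higher and 3 lower (2.7% and 4.85%), adventitial cells 2 of 19 higher and 4 lower (6.59% and 8.72%), and *Cxcl13* cells 1 of 19 higher and 2 lower (1.99% and 3.45%). In *Pdgfrl Fxyd6* cells edgeR called 0 of 16 in either direction (2.87% and 3.43%), with 0 higher and 1 lower at an unadjusted p under 0.05, and DESeq2 called 0. These values are log2 fold changes from the same edgeR fits. A gene of the list was named only if its adjusted p was under 0.05 and it was higher in 3 of 3 libraries.

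Over the 30 sums of 10 classes in 3 libraries, the gene most like *Apod* among 11840 was *Gria3* (Pearson r = 0.964), and that most like *Fabp4* was *Esam* (r = 0.948). *Abca1* was most like *Vcam1* (r = 0.909), *Pltp* most like *Sgk1* (r = 0.869), *Apoe* most like *Clip2* (r = 0.864), *Cd36* most like *Cttnbp2nl* (r = 0.839) and *Fabp5* most like *Marcksl1* (r = 0.754). Among the 8 themselves, *Apod* and *Lpl* had r = 0.703, *Pltp* and *Abca1* 0.702, *Apoe* and *Pltp* 0.697 and *Cd36* and *Fabp4* 0.638. *Fabp4* and *Fabp5*, near each other on chromosome 3, had r = -0.03. The points of these correlations share their libraries and their free RNA and are no replicates, and the values are given as a description.

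Set side by side without a test, *Fabp5* and *Abca1* were higher in both male libraries than in the female one in 8 of 10 classes each, and lower in both in 1 class each. *Fabp5* in macrophage-like cells was 9.33 and 13.6 times the female level in male libraries 1 and 2, and in acinar-like cells 3.85 and 3.18 times. *Abca1* in macrophage-like cells was 1.335 and 1.49 times the female level. *Apoe* was higher in both male libraries in 6 classes, by 2.13 and 2.17 times in fibroblast-like cells, and lower in both in 4 classes, among them macrophage-like cells (0.752 and 0.952 times). *Lpl* was lower in both male libraries in 5 classes, with 0.844 and 0.662 times the female level in fibroblast-like cells. The 5 include classes with few *Lpl* UMIs, which cannot order the libraries well. These were *Ltf+*-like (2, 0 and 0 UMIs), MEC-like (3, 0 and 0) and acinar-like cells (18, 0 and 6). Free RNA was estimated at 32% of the UMIs of fibroblast-like cells in the female library and at 53.7 and 59.8% in the male ones. Within it *Fabp5* was higher in the male libraries, as given above, whereas *Apoe* (505, 318 and 318 CPM) and *Abca1* (14.2, 9.27 and 12.1) were lower, and its part in the differences was not tested.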

How the data were processed

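Single-cell RNA sequencing of dissociated LG cells gave 1 female and 2 male libraries. The deposited values are raw UMI counts per gene and barcode, which the authors made with Cell Ranger (version 6.1.2 and mm10 per the submitters' processing notes, while 1 file header names another version). They precede the authors' own correction for free RNA and their cell filters. The annotation release was not given in the sources used here, and gene coordinates were taken from a GRCm38 annotation.

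Cells with over 500 UMIs, over 200 genes and under 15% mitochondrial UMIs were kept, and 646, 287 and 315 predicted doublets were removed (scanpy 1.11.5). Libraries were integrated and clustered with Seurat 5.3.0 at resolution 1, leaving out 384 genes that include the 8 genes and the lipid list. Clusters were named from marker lists by a score rule that was chosen with the clusters in view. The 8 genes and the lists were chosen with earlier results of these data known. UMIs were summed per library for each class or subset and for the cells it was set against, and compared with edgeR 4.0.16 (quasi-likelihood test, TMM, Benjamini-Hochberg over all genes tested, adjusted p under 0.05), with the library as a block because both sums come from 1 suspension. The remaining endothelial-like and fibroblast-like cells include clusters without a subset name. All named genes followed a fixed rule, which took the 8 genes, up to 3 listed lipid genes and the genes most like each of the 8. The listed lipid genes were those with the largest called increase among those higher in 3 of 3 libraries. Likeness was computed on log2(level + 10) over genes with at least 100 UMIs. Intervals and limits cover counting error only. Alternatives were DESeq2 1.42.0, other scalings, filters and clusterings, and leaving out each library. The fits were tested on simulated data. Results for 2 genes that this rule would name are not reported here.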

Additional observations from a re-analysis of the deposited data

Results flagged for a closer look

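In 12 cases the female library and both male libraries differed in the sign of the log2 ratio over the other cells, on the scale of the edgeR fits. None of these differences was tested, since there is 1 female library. That scale counts tear products. By the CPM levels used above, *Fabp5* in acinar-like cells was lower in all 3 libraries (67, 258 and 213 against 95.6, 317 and 349). *Abca1* in MEC-like cells was higher in all 3 (108, 126 and 85.5 against 95.3, 74.6 and 66.2). *Apoe* in M2-like cells was also higher in male library 1, and *Fabp5* in mural-like cells in male library 2. In macrophage-like cells the female ratio was -1.63 for *Pltp* (2.82 and 2.80 in the male libraries), -0.42 for *Fabp5* (1.17 and 1.85) and -0.96 for *Lpl* (0.87 and 2.14). For *Apoe* it was -2.07 in fibroblast-like cells (0.45 and 0.50), -1.43 in duct-like cells (0.34 and 0.30) and 0.16 in the M2-like subset (-0.11 and -1.04). *Fabp5* stood at 0.29 in acinar-like cells (-0.24 and -0.64) and at 0.16 in mural-like cells (-2.64 and -0.70). The remaining cases were *Cd36* in capillary cells at -0.93 (0.47 and 1.78), *Fabp4* in *Trem2*-like cells at -0.98 (1.95 and 1.74), *Pltp* in adventitial cells at -0.15 (2.28 and 1.80) and *Abca1* in MEC-like cells at -0.03 (0.51 and 0.06). The mix of the other cells differed between libraries, so a ratio also moves with those cells. *Lpl* was at 126, 192 and 253 CPM in macrophage-like cells, against 376.5, 143 and 75.8 in the other cells. *Apoe* was at 8154, 3665 and 3434 CPM in the cells set against fibroblast-like ones.

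The 333 cells of myeloid clusters that could not be named entered no comparison, yet they held UMIs of 7 of the 8 genes. They had 4004 UMIs of *Apoe*, 45 of *Abca1*, 39 of *Fabp5*, 34 of *Lpl*, 22 of *Pltp*, 22 of *Cd36* and 4 of *Apod*.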

How the results depend on the processing

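Of 1791 values recomputed under an alternative, 1621 kept their direction and their side of the threshold. Of 65 calls between classes, 52 were kept under every alternative run, and of 39 calls between subsets 9 were. Taking total UMIs as library sizes moved the median log2 fold change of all genes to values from -2.66 in acinar-like to 1.44 in MEC-like cells. It gave 25 higher and 43 lower member calls between classes against 16 and 49, 45659 higher and 23151 lower calls over all genes against 17158 and 29901, and 4298 higher and 2592 lower calls between subsets against 2354 and 3110. Under that scale the direction turned for *Apoe* in duct-like (1.45), fibroblast-like (1.35), capillary (0.072) and M2-like cells (0.25), for *Abca1* in duct-like (1.18), mural-like (0.16), other myeloid-like (0.015) and capillary cells (0.28), for *Fabp5* in endothelial-like (0.60) and mural-like cells (0.84), for *Lpl* in mural-like (1.24), *Pltp* in other myeloid-like (1.05) and *Fabp4* in arteriolar cells (0.53). With UMIs outside tear-product and mitochondrial genes as library sizes it turned for *Lpl* in mural-like (0.10), *Fabp4* in arteriolar (0.48) and *Apoe* in M2-like cells (0.23). DESeq2 gave 19733 lower calls over all genes between classes, 1131 higher and 1289 lower calls between subsets, and turned *Cd36* in capillary (0.11) and *Fabp4* in arteriolar cells (0.018). The direction also turned for *Abca1* in M2-like cells without the filter on low counts (-0.050), for *Fabp5* in duct-like (-0.025) and *Fabp4* in mural-like cells (-0.031) at a mitochondrial share under 5%, and for *Cd36* in capillary cells at clustering resolution 0.6 (0.40). The cause of these changes was not tested.

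Without the library block, that is without the pairing of the 2 sums of a library, 3 higher and 11 lower member calls were made between subsets against 18 and 21, and 635 higher and 803 lower calls over all genes.

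Leaving out 1 library gave 13 to 20 higher and 46 to 50 lower member calls between classes, 16 higher and 15 to 19 lower between subsets, and over all genes 11742 to 17673 higher and 20109 to 23782 lower calls between classes and 1374 to 1713 higher and 1749 to 2380 lower between subsets. The value then crossed 0 for *Fabp5* in acinar-like (-0.44 to 0.032), *Abca1* in duct-like (-0.55 to 0.034), *Apoe* in duct-like (-0.54 to 0.52), fibroblast-like (-0.80 to 0.53) and M2-like (-0.36 to 0.053), *Cd36* in mural-like (-0.41 to 1.69) and capillary (-0.72 to 0.87), *Lpl* in macrophage-like (-0.072 to 1.68), *Pltp* in other myeloid-like (-0.89 to 0.33) and *Fabp4* in arteriolar cells (-0.38 to 0.14). Levels per all UMIs moved beyond 1 SD in 95 of 216 cases. Arteriolar cells could not be compared at over 1000 UMIs per cell. Few UMIs limit *Cd36* and small groups such as mural-like and arteriolar cells.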
